A study of Danio rerio with 4 samples.

Results

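The proteasome genes described here are the 57 gene IDs, of 32520 in the table, whose symbol begins with psma to psmg and a digit. They comprise 9 genes of the alpha ring, 7 of the constitutive beta ring, 5 immune beta genes, 2 thymus-type beta genes, 7 ATPase genes and 13 non-ATPase genes of the regulatory particle. The others are 3 chaperones of regulatory particle assembly, 5 activators, 1 inhibitor, 3 chaperones of core assembly and 2 genes that match by name only, psmc3ip and psme3ip1. A further 3 IDs match apart from capital letters (PSMA2, PSMD2 and PSMD4) and were not counted as members.

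Whole zebrafish larvae (Danio rerio) were exposed to PM2.5, fine airborne particles from smog, or left untreated as controls. Exposed larvae received 12000000 particles between 72 and 120 hours after fertilization, and no strain, mutation or transgene is named for either group. Each group has 2 libraries, RNA came from 5 to 7 larvae in each group per the design text, and the labels do not tie a library to a clutch or an exposure of its own. The p-values below therefore rest on library-to-library spread alone, and that spread may be technical. Values are in TPM, reads per gene length scaled to the same total in each library, so a TPM is a share and levels of different genes can be set side by side. The reads behind the values were recovered from the steps between TPM values and came to 25201191 and 16177056 in the PM2.5 libraries and 20491544 and 15894723 in the controls.

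The proteasome is the protease that degrades proteins tagged with ubiquitin. Its core is a barrel of alpha rings, which form the gate, around beta rings, of which the subunits encoded by psmb5, psmb6 and psmb7 cut peptides. A regulatory particle of ATPases and non-ATPase subunits binds ubiquitin chains, removes them and unfolds the protein. In vertebrate cells under interferon or in immune cells, the beta subunits encoded by psmb8, psmb9 and psmb10 can replace psmb5, psmb6 and psmb7, and the psme1/psme2 activator can cap the core in place of the regulatory particle. Such immunoproteasomes are known for making peptides for MHC class I.

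Genes of the standard proteasome had higher TPM, a share of RNA, in exposed larvae. The data hold no values of protein or proteasome activity. All 9 alpha ring, all 7 constitutive beta ring and all 7 ATPase members rose, as did 7 of 13 non-ATPase members. The alpha ring ID PSMA2, not counted as a member, did not pass. The test was limma on log2(TPM + 1), with a Benjamini-Hochberg adjusted p under 0.05 over all 20874 genes tested. Among all 51 members tested, those with a mean of at least 1 TPM, 34 rose and none fell, where 8.46% of all tested genes rose and 2.62% fell. At an unadjusted p under 0.05, 5669 of all tested genes passed. On simulated counts with few changed genes, 11.6% of the calls of this fit were false. Of simulated log2 changes of 0.5, pooled over genes of all tested levels, it recovered 0.151%, which cannot be read as a rate for these members. Of the tested members 48 had a log2 fold change above 0, against 58.5% of all tested genes, and 4 of those that rose did so at least 2-fold, against 3.23%. The PM2.5 libraries lay above both controls for 47 tested members and below both for 2 (psme4a and psmf1), against 36.6% and 19.7% of all tested genes. In RNA of whole larvae, fewer cells of a type and less RNA per cell cannot be told apart. The median log2 fold change was 0.49 over the tested members and 0.07 over all tested genes. Both PM2.5 libraries lay above both controls for 36 of the 36 genes of the alpha ring, beta ring, ATPase and non-ATPase classes. Summed over these 36 genes, the level was 2864 and 2783 TPM in the PM2.5 libraries and 1922 and 1911 TPM in the controls, 1.47-fold higher. Leaving aside psma6l, the log2 fold changes of the other 35 genes, of which 29 rose and 6 did not pass, ran from 0.21 to 0.74, with an SD across genes of 0.13. With TMM-type rescaling 22 members rose, where 5.86% of all tested genes rose and 4.05% fell. With quantile normalization 23 members rose, where 6.34% of all tested genes rose and 4.61% fell. With no intensity trend in the fit 4 members rose, where 3.19% of all tested genes rose. Of these, 1 was in the alpha ring and 0 in the beta ring, ATPase and non-ATPase classes, so nearly all calls of standard subunits were lost. Leaving out PM2.5 replicate 1 left 3 rises (1.37% of all tested genes), PM2.5 replicate 2 left 6 (1.75%), control replicate 1 left 5 (1.48%) and control replicate 2 left 6 (1.78%), and only psma8 and psmb1 passed in all 4 of these fits.

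**Figure D1:**
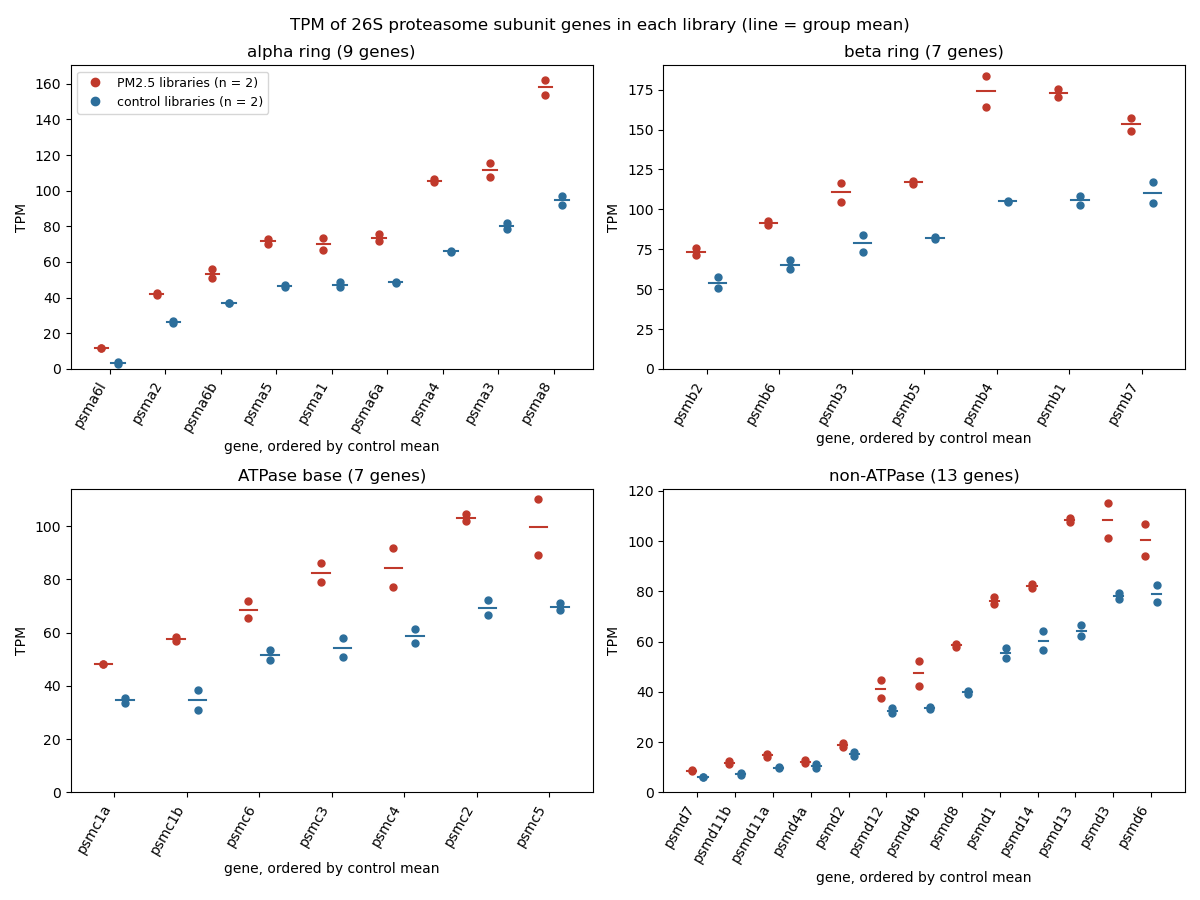
TPM (y axis, linear from 0) of the alpha ring, beta ring, ATPase and non-ATPase genes in each library, with PM2.5 libraries in red left of control libraries in blue and a line at each group mean (n = 2 each). In all 36 genes both red points lie above both blue points.

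The alpha ring opens and closes the core. Its summed level was 702 and 693 TPM in the PM2.5 libraries and 448 and 451 TPM in the controls. The most abundant alpha gene, psma8 (ENSDARG00000010965, chromosome 20), which RefSeq also lists as psma7, had 154 and 162 TPM in PM2.5 larvae and 92.1 and 97.1 TPM in controls. Its log2 fold change was 0.73 (SE 0.06, adjusted p = 0.0017), and the groups were well apart. The smallest change among the counted alpha genes was that of psma3 (chromosome 17), a log2 fold change of 0.47 (SE 0.07). It had 115 and 108 TPM in PM2.5 larvae and 78.7 and 82.1 TPM in controls. The uncounted ID PSMA2 (chromosome 19) had 20.8 and 17.6 TPM in PM2.5 larvae and 13.5 and 13.8 TPM in controls. Its log2 fold change was 0.46 and did not pass (adjusted p = 0.077). With it counted, not every alpha ring gene would have risen.

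One alpha gene stood apart from the rest in size of change. The level of psma6l (ENSDARG00000043899, chromosome 15), named as psma6-like, was 11.6 and 11.7 TPM in PM2.5 larvae and 2.70 and 3.81 TPM in controls. Its log2 fold change was 1.59 (SE 0.19, 95% confidence interval 1.12 to 2.05, adjusted p = 0.0050). Behind these values were 359 reads in the PM2.5 libraries and 85 in the controls. The call held without control replicate 2 and was lost in the other 3 fits that left out 1 library (adjusted p from 0.046 to 0.090 over the 4 fits). The main psma6 genes, psma6a and psma6b, rose by 0.59 and 0.52. The gene psma6l made up 8.35% and 8.49% of the summed psma6 TPM in the PM2.5 libraries and 3.05% and 4.29% in the controls, so it remained the minor form. Reads shared among the 3 psma6 genes could not be separated, as no source used here says how reads with several matches were treated.

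The constitutive beta ring, which holds the active sites, summed to 892 and 893 TPM in the PM2.5 libraries and 607 and 597 TPM in the controls. The largest change was that of psmb4 (ENSDARG00000054696, chromosome 19), a structural subunit, with 184 and 164 TPM in PM2.5 larvae and 104.9 and 105.4 TPM in controls. Its log2 fold change was 0.72 (SE 0.07, adjusted p = 0.0026). The structural gene psmb1 (chromosome 13) rose by 0.71 (SE 0.06), and both genes showed groups far apart relative to the spread within each group.

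The 3 catalytic genes rose by less than psmb4 and psmb1, with log2 fold changes between 0.47 and 0.50. The other genes of the ring, psmb3 and psmb2, rose by 0.49 and 0.44, so the smaller rise was not particular to catalytic genes. Differences between genes were not tested. For the chymotrypsin-like subunit gene psmb5 (ENSDARG00000075445, chromosome 2) the level was 118 and 116 TPM in PM2.5 larvae and 83.0 and 81.3 TPM in controls (adjusted p = 0.0052). For the caspase-like subunit gene psmb6 (ENSDARG00000002240, chromosome 23) it was 90.3 and 92.5 TPM in PM2.5 larvae and 68.2 and 62.6 TPM in controls (adjusted p = 0.013). For the trypsin-like subunit gene psmb7 (ENSDARG00000037962, chromosome 21) it was 149 and 157 TPM in PM2.5 larvae and 117 and 104 TPM in controls (adjusted p = 0.015). The 3 genes thus moved by 1.39-fold to 1.42-fold. For each of them both PM2.5 libraries lay above both controls, as for 36.6% of all tested genes. After TMM-type rescaling psmb5 stayed past the threshold (adjusted p = 0.028), while psmb6 (0.052) and psmb7 (0.065) missed it. After quantile normalization, where 6.34% of all tested genes rose, the 3 genes passed (adjusted p = 0.018, 0.043 and 0.045). The smallest change in the ring was in psmb2 (chromosome 19), at 75.8 and 71.2 TPM in PM2.5 larvae and 57.7 and 50.6 TPM in controls, a log2 fold change of 0.44 (SE 0.09).

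The ATPases of the regulatory particle unfold substrates and thread them into the core. They summed to 569 and 519 TPM in the PM2.5 libraries and 370 and 376 TPM in the controls. The largest change was in psmc1b (ENSDARG00000043561, chromosome 20), at 57.0 and 58.4 TPM in PM2.5 larvae and 31.1 and 38.6 TPM in controls, a log2 fold change of 0.72 (SE 0.12, adjusted p = 0.015). Its paralog psmc1a rose by 0.47 (SE 0.08), and the pair were at nearly equal levels in every library, with psmc1b at 54.1% and 54.7% of their summed TPM in PM2.5 larvae and 46.7% and 53.4% in controls. The smallest change was in psmc6 (chromosome 20), at 71.7 and 65.6 TPM in PM2.5 larvae and 53.4 and 49.6 TPM in controls (0.41, SE 0.08). For psmc4 and psmc5 the PM2.5 libraries themselves differed, with PM2.5 replicate 1 above PM2.5 replicate 2 (91.9 and 77.0 TPM for psmc4, 110.04 and 89.1 TPM for psmc5). Both PM2.5 libraries were still above the controls, at 55.9 and 61.3 TPM for psmc4 and 71.1 and 68.4 TPM for psmc5. TMM-type rescaling put 3 of the 7 ATPase genes past the threshold, and quantile normalization also 3. In these fits 5.86% and 6.34% of all tested genes rose.

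Non-ATPase subunits include the ubiquitin receptors and the enzyme that cuts off ubiquitin chains. They summed to 700.0 and 678 TPM in the PM2.5 libraries and 497 and 488 TPM in the controls. The genes that rose were psmd13, psmd11a, psmd11b, psmd8, psmd3, psmd1 and psmd14. The lid gene psmd13 (ENSDARG00000016239, chromosome 25) changed most, with 109 and 107 TPM in PM2.5 larvae and 62.3 and 66.4 TPM in controls, a log2 fold change of 0.74 (SE 0.07, adjusted p = 0.0020). The deubiquitinase gene psmd14 (chromosome 11) had 81.4 and 82.9 TPM in PM2.5 larvae and 64.2 and 56.5 TPM in controls (0.44, adjusted p = 0.026).

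The other 6 non-ATPase genes, psmd4b, psmd6, psmd12, psmd7, psmd2 and psmd4a, did not pass, with adjusted p from 0.055 (psmd4b) to 0.392 (psmd4a). Each had PM2.5 libraries above the controls, as did 36.6% of all tested genes. The ubiquitin receptor gene psmd4a (chromosome 19) had the smallest change, at 11.7 and 12.8 TPM in PM2.5 larvae and 11.2 and 9.72 TPM in controls, a log2 fold change of 0.21 (95% confidence interval -0.13 to 0.55). Its paralog psmd4b, which carried 81.7% and 76.8% of their summed TPM in PM2.5 larvae and 75.1% and 77.4% in controls, had a log2 fold change of 0.47. With limma voom on the recovered reads, chosen after seeing the data, 11 of the 13 rose, including psmd4b, psmd6, psmd7 and psmd12 (13.5% of all tested genes rose in that fit). Levels within the class spanned a wide range: in controls psmd6 averaged 79.0 TPM and psmd7 6.22 TPM. The member psmd2 is one of a pair of IDs on unplaced scaffolds. The other, PSMD2, had 43.7 and 47.8 TPM in PM2.5 larvae and 35.6 and 33.0 TPM in controls, and passed (0.41, adjusted p = 0.044), and reads of the pair may have been split between them.

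**Figure D2:**
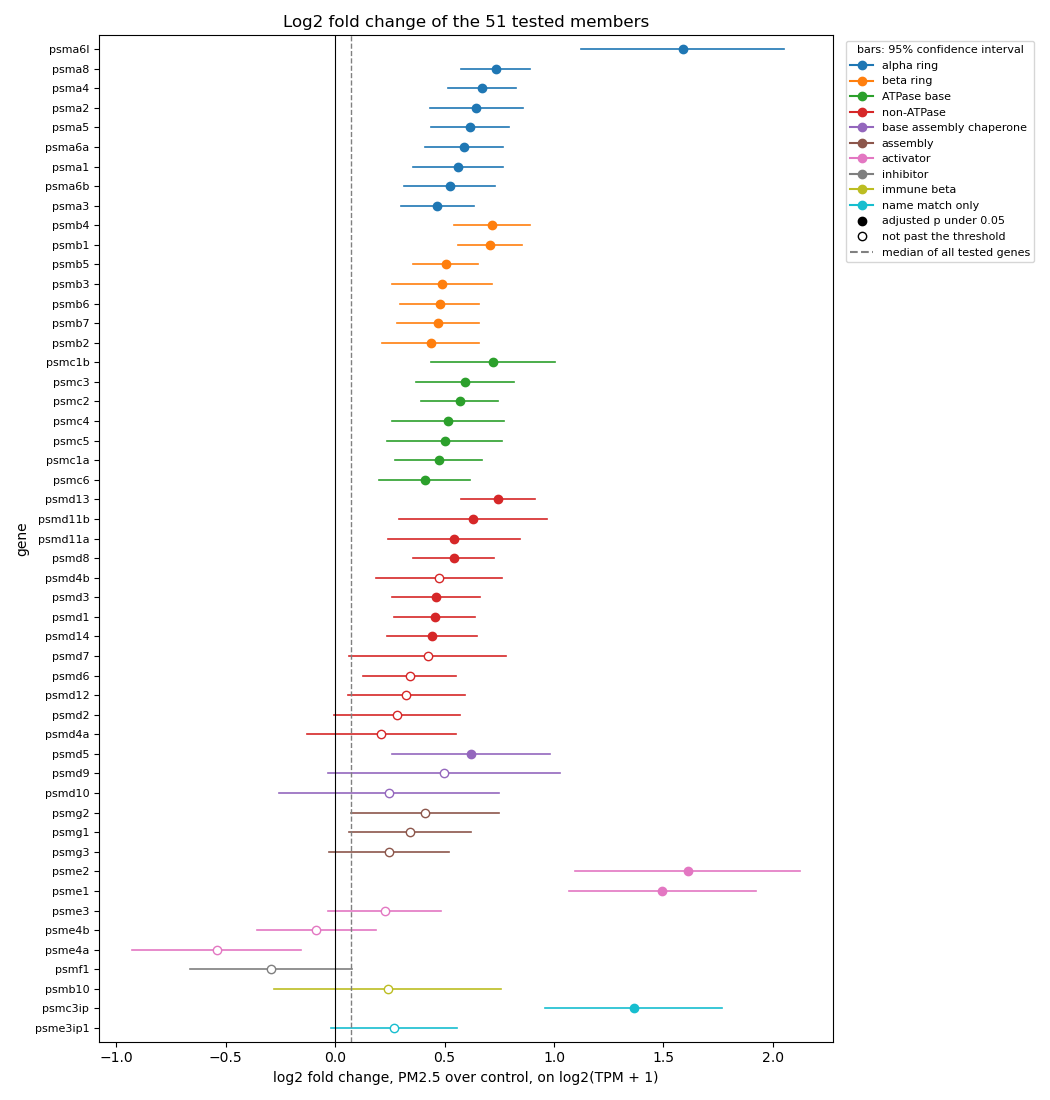
Log2 fold change of PM2.5 over control on log2(TPM + 1) (x axis) for the 51 tested members (y axis), coloured by class, with bars for the 95% confidence interval and filled points for an adjusted p under 0.05 (n = 2 libraries each). The dashed line is the median of all tested genes, 0.07, and psma6l, psme1, psme2 and psmc3ip are the 4 genes above 1.

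Of the 5 activator genes 2 rose, where 8.46% of all tested genes rose. The genes psme1 and psme2 encode the alpha and beta subunits of PA28, the ring that caps immunoproteasomes and is induced by interferon gamma in mammals. The level of psme1 (ENSDARG00000002165, chromosome 24) was 18.4 and 19.9 TPM in PM2.5 larvae and 7.24 and 5.19 TPM in controls. The level of psme2 (ENSDARG00000033144, chromosome 12) was 11.8 and 13.4 TPM in PM2.5 larvae and 4.26 and 2.77 TPM in controls. Both genes rose about equally, with log2 fold changes of 1.495 (SE 0.17, adjusted p = 0.0047) and 1.61 (SE 0.21, adjusted p = 0.0069), and the 2 groups were far apart for each. Their mean fold changes in TPM were 3.08 and 3.59. The ratio of psme1 to psme2 was 156% and 148% in the PM2.5 libraries and 170.0% and 188% in the controls. Without single libraries the call of psme1 held only when control replicate 1 was left out, and that of psme2 was lost in all 4 fits (adjusted p from 0.040 to 0.086 and from 0.051 to 0.096).

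The other activators did not pass. The nuclear activator PA28 gamma is encoded by psme3 (ENSDARG00000012234, chromosome 12), with 22.8 and 22.2 TPM in PM2.5 larvae and 18.3 and 20.0 TPM in controls (0.23, 95% confidence interval -0.03 to 0.48, adjusted p = 0.233). Set against psme3, psme1 stood at 80.6% and 89.3% in the PM2.5 libraries and 39.5% and 25.98% in the controls, and psme2 at 51.5% and 60.4% in the PM2.5 libraries and 23.3% and 13.9% in the controls. These ratios were chosen after the values were seen. Both groups were apart in each ratio, for which an exact two-sided permutation test of 2 against 2 libraries gives p = 0.333, the smallest it can give.

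PA200, a large cap for ubiquitin-independent degradation, is encoded by psme4a and psme4b. The level of psme4a (ENSDARG00000087911, chromosome 13) was 7.88 and 6.82 TPM in PM2.5 larvae and 10.2 and 12.1 TPM in controls, with no overlap, at a log2 fold change of -0.54 (SE 0.16, adjusted p = 0.085). With voom on the recovered reads it passed as lower (-0.55, adjusted p = 0.0065), where 5.5% of all tested genes were lower. Its paralog psme4b (chromosome 12) had 17.9 and 20.0 TPM in PM2.5 larvae and 19.7 and 20.6 TPM in controls (-0.09, 95% confidence interval -0.36 to 0.19), and those groups overlapped. The inhibitor gene psmf1 (ENSDARG00000022652, chromosome 6), which encodes PI31, had 14.7 and 18.6 TPM in PM2.5 larvae and 22.2 and 18.9 TPM in controls (-0.29, adjusted p = 0.275). The genes psme4a, psme4b and psmf1 were the 3 of 51 tested members with a negative log2 fold change.

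Of the 6 assembly chaperone genes 1 rose, where 8.46% of all tested genes rose. The psmg genes encode chaperones that build the alpha ring. The level of psmg1 (ENSDARG00000040620, chromosome 10) was 26.6 and 24.1 TPM in PM2.5 larvae and 18.6 and 21.0 TPM in controls (0.34, adjusted p = 0.121). Its partner psmg2 (ENSDARG00000035987, chromosome 19) had 22.9 and 29.4 TPM in PM2.5 larvae and 19.6 and 18.9 TPM in controls (0.41, adjusted p = 0.125). A further chaperone gene, psmg3 (ENSDARG00000098391, chromosome 3), had 35.01 and 29.5 TPM in PM2.5 larvae and 27.2 and 26.7 TPM in controls (0.25, adjusted p = 0.224). All 3 had PM2.5 libraries above the controls, as did 36.6% of all tested genes, and none passed. Of the chaperones of the ATPase ring, psmd5 rose (17.0 and 14.7 TPM in PM2.5 larvae, 10.9 and 9.12 TPM in controls, adjusted p = 0.049), at the edge of the threshold. The values of psmd9 (0.50) and psmd10 (0.24) did not pass, with adjusted p of 0.208 and 0.504.

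RNA of the immune beta subunits was rare in these larvae. Together the 5 genes summed to 6.59 and 7.02 TPM in the PM2.5 libraries and 3.12 and 3.17 TPM in the controls, against sums of 892 and 893 TPM in the PM2.5 libraries and 607 and 597 TPM in the controls for the constitutive ring. Only psmb10 (ENSDARG00000043781, chromosome 4) reached the minimum for testing. Its level was 3.23 and 3.56 TPM in PM2.5 larvae and 2.58 and 2.87 TPM in controls, a log2 fold change of 0.24 (95% confidence interval -0.28 to 0.76, adjusted p = 0.526). That left psmb10 at 2.16% and 2.27% of the TPM of psmb7, the subunit it can replace, in the PM2.5 libraries and at 2.20% and 2.76% in the controls.

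The other 4 immune genes lie next to each other on chromosome 19, in the order psmb13a, psmb8a, psmb12 and psmb9a in the RefSeq assembly GRCz12tu, followed by the peptide transporter gene tap2a. All 4 were below a mean of 1 TPM, so the reads themselves are given, and their intervals and limits cover counting error only. The gene psmb9a (ENSDARG00000000656, also called lmp2) had 23 and 15 reads in the PM2.5 libraries and 1 and 0 in the controls, or 1.52 and 1.56 TPM in PM2.5 larvae and 0.0818 and 0 TPM in controls. The ratio of PM2.5 to control per unit of depth was 33.0 (exact 95% counting interval 5.58 to 1338). In the fit with no filter on low values psmb9a passed as higher (1.29 on the log2(TPM + 1) scale, adjusted p = 0.023), where 4.96% of genes rose. Relative to psmb6, psmb9a stood at 1.68% and 1.69% in the PM2.5 libraries and at 0.12% and 0% in the controls, so psmb6 was far above it in every library.

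The gene psmb12 (ENSDARG00000031885), which RefSeq lists with the synonym beta1t, had 7 and 10 reads in the PM2.5 libraries and 1 and 0 in the controls, a ratio of 14.8 (2.31 to 617). It did not pass in the fit with no filter (adjusted p = 0.118). For psmb8a (ENSDARG00000001303, also called lmp7) there were 22 and 7 reads in the PM2.5 libraries and 6 and 4 in the controls, a ratio of 2.52 (1.19 to 5.79). In TPM, psmb8a was at 1.03 and 0.519 in PM2.5 larvae and 0.349 and 0.307 in controls, so PM2.5 replicate 1 was well above PM2.5 replicate 2, and it did not pass in the fit with no filter (adjusted p = 0.374). Against psmb5 it stood at 0.878% and 0.447% in the PM2.5 libraries and 0.421% and 0.377% in the controls. An exact two-sided permutation test of the log2 ratio, with 1 TPM added to both genes, gave p = 1 for psmb8a over psmb5. The same exact permutation test gave p = 0.333, the smallest possible, for psmb9a over psmb6 and for psmb10 over psmb7. The percentages, with no TPM added, were not tested and order the libraries differently. In percent the groups did not overlap for psmb8a over psmb5, and they overlapped for psmb10 over psmb7. The gene psmb13a had 2 and 0 reads in the PM2.5 libraries and none in the controls, where 0 reads allow up to 0.381 and 0.501 TPM (3 reads), and psmb11a, a thymus-type gene, was at 0 in all 4 libraries. Its paralog psmb11b had 1 read, in control replicate 2.

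Some markers of cell types differed between the groups as well. Over all tested genes 8.46% rose and 2.62% fell. Of 6 macrophage markers 1, mfap4, rose, with a summed level over the list of 36.0 to 39.0 TPM in PM2.5 larvae and 21.4 to 25.2 TPM in controls. The groups overlapped for csf1ra and cd74a. Of 4 neutrophil markers 2 rose, srgn and mpx, with sums of 64.8 to 65.7 TPM in PM2.5 larvae and 43.0 to 44.5 TPM in controls. For lyz the groups overlapped. The 5 lymphoid markers, of which 1 was tested and did not pass, summed to 3.27 to 4.21 TPM in PM2.5 larvae and 2.64 to 3.51 TPM in controls, with cd4-1 at 0 in PM2.5 replicate 1 and control replicate 2. These lists hold the cells that mainly use immune subunits in mammals, and their part in the values of the immune subunits and of psme1 and psme2 was not tested. Other lists were lower in exposed larvae: all 3 skin keratin markers fell, with sums of 4502 to 4600 TPM in PM2.5 larvae and 10802 to 10948 TPM in controls. All 4 skeletal muscle markers fell, with sums of 41400 to 43129 TPM in PM2.5 larvae and 50611 to 52520 TPM in controls. Of these, mylpfa (adjusted p = 0.045) and tnnt3b (0.049) passed narrowly. Both missed the threshold after TMM-type rescaling (adjusted p = 0.173 and 0.091), where 4.05% of all tested genes fell. In the main fit 3 of 3 lens markers fell (3027 to 3040 TPM in PM2.5 larvae, 4807 to 4872 TPM in controls). So did 3 of 3 exocrine pancreas markers (623 to 635 TPM in PM2.5 larvae, 885 to 918 TPM in controls). Of 3 liver markers 1 fell (3980 to 4069 TPM in PM2.5 larvae, 4453 to 4694 TPM in controls), and none of 3 neuron markers passed (575 to 594 TPM in PM2.5 larvae, 623 to 670.1 TPM in controls). Of 2 tested erythroid markers alas2 rose and hbbe1.1 fell (sums of 199 to 204 TPM in PM2.5 larvae and 600.4 to 630.5 TPM in controls). The part of these shifts in the changes of the standard subunits was not tested.

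**Figure D3:**
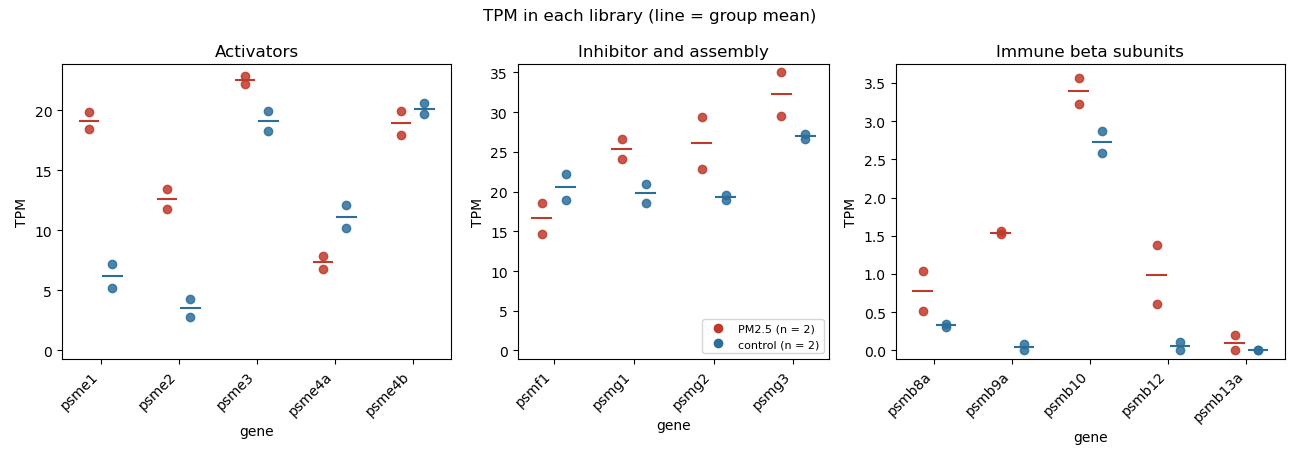
TPM (y axis, linear, a different range in each panel) of the 5 activator genes, the inhibitor psmf1 with the 3 psmg genes, and the 5 immune beta genes, with PM2.5 libraries in red left of controls in blue and a line at each group mean (n = 2 each). For psme1, psme2 and psmb9a both red points lie well above both blue points. For psme4a and psmf1 both lie below them, for psmf1 only just (18.6 against 18.9 TPM in replicate 2 of each group). Of all tested genes 36.6% lay above both controls and 19.7% below.

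The 2 genes that match by name only do not encode proteasome subunits. The gene psmc3ip (ENSDARG00000037892, chromosome 3) encodes a partner of meiotic recombinases, and had 9.34 and 9.37 TPM in PM2.5 larvae and 2.95 and 3.10 TPM in controls. It rose by 1.36 on the log2 scale (SE 0.17, adjusted p = 0.0053), and the call was lost in all 4 fits that left out 1 library (adjusted p from 0.067 to 0.087). For psme3ip1 the log2 fold change was 0.27 and did not pass (adjusted p = 0.208). Without this pair, 33 of 49 tested members rose.

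Partners of the proteasome outside the name rule were read from lists. For these counts too, the shares over all tested genes were 8.46% higher and 2.62% lower. Of 12 other proteasome parts, 4 rose: pomp, txnl1, adrm1 and sem1. The assembly factor gene pomp (chromosome 21), which completes the core, had 97.8 and 92.9 TPM in PM2.5 larvae and 63.9 and 69.6 TPM in controls (0.51, adjusted p = 0.011). The ubiquitin receptor gene adrm1 and the lid gene sem1 rose by 0.48 and 0.54, and the proteasome-bound thioredoxin gene txnl1 by 0.65. The median of this list was 0.27. None of the 4 calls held in any fit that left out 1 library, and 3 held after each rescaling.

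Of 11 tested regulators of proteasome genes, 10 had a log2 fold change above 0, against 58.5% of all tested genes. Only nfe2l1a lay below 0. Counts of called regulators stand beside 8.46% of all tested genes that rose and 2.62% that fell. In mammals the transcription factor NRF1, encoded by NFE2L1, drives proteasome gene transcription when degradation is blocked, after deglycosylation by NGLY1 and cleavage by DDI2. Its zebrafish gene nfe2l1a (chromosome 3) fell, with 12.5 and 14.2 TPM in PM2.5 larvae and 22.7 and 24.7 TPM in controls (-0.79, SE 0.12, adjusted p = 0.012). The second copy, nfe2l1b, was at 7.80 and 7.98 TPM in PM2.5 larvae and 5.92 and 5.67 TPM in controls, with a log2 fold change of 0.39 that did not pass (adjusted p = 0.169). The deglycosylase gene ngly1 rose, with 14.9 and 15.7 TPM in PM2.5 larvae and 6.24 and 7.69 TPM in controls (1.04, adjusted p = 0.010), and ddi2 was at 0.07 (adjusted p = 0.758). The oxidative stress factor genes nfe2l2b and nfe2l2a rose by 0.86 and 0.39 (adjusted p = 0.017 and 0.019). In all, 3 of 11 regulators rose and 1 fell, with a median of 0.36, and none of these 4 calls held in any fit that left out 1 library.

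Genes upstream of the proteasome rose in part. Of 33 genes for ubiquitin-activating and ubiquitin-conjugating enzymes, 10 rose and 1, ube2j2, fell (median 0.24), against 8.46% and 2.62% of all tested genes. The smallest p in that list belonged to the conjugating enzyme genes ube2l3b (0.61), ube2na (0.51) and ube2l3a (0.75). Over all tested genes TMM-type rescaling gave 5.86% higher and 4.05% lower, and quantile normalization 6.34% and 4.61%. TMM-type rescaling gave 3 rises in the list, quantile normalization gave 4, with 2 falls in each, and ube2l3a alone passed when 1 library was left out, in 1 of 4 fits. Of 22 tested genes for the segregase VCP, its cofactors and shuttle factors, 5 rose (median 0.25). The segregase gene vcp itself (chromosome 5) had 153.0 and 152.7 TPM in PM2.5 larvae and 107 and 110 TPM in controls (0.49, SE 0.06, adjusted p = 0.0047), a change of the same size as the median member. The gene edem1, for degradation of misfolded proteins of the endoplasmic reticulum, rose by 1.08, and the shuttle gene rad23b by 0.46. Of this list 3 rose after each rescaling, and edem1 alone passed when 1 library was left out, in 1 of 4 fits. Among 8 tested ubiquitin and ubiquitin-like genes 4 rose, among them rps27a at 0.17, while ubb at 0.16 and ubc at -0.05 did not pass. After TMM-type rescaling 1 of the 8 rose and rps27a was at 0.07 (adjusted p = 0.581), and none of the 4 passed in any fit that left out 1 library.

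For MHC class I antigen processing 7 of 17 tested genes rose and 1, mhc1zca, fell (median 0.64), against 8.46% and 2.62% of all tested genes. The members with the smallest p were pdia3 (0.998), calr3b (1.84) and mhc1zba (1.20). The rises also included canx, calr and calr3a. The disulfide isomerase pdia3, canx and the calreticulin genes, most of the rises in this list, also serve general protein folding in the endoplasmic reticulum. The genes tap2t, erap1a, erap1b and erap2 did not pass. The class I gene mhc1zba (chromosome 1) had 115 and 107 TPM in PM2.5 larvae and 48.1 and 47.5 TPM in controls (adjusted p = 0.00049). Of the light chain genes, b2ml (chromosome 8) rose just past the threshold, with 58.7 and 61.6 TPM in PM2.5 larvae and 45.6 and 48.9 TPM in controls (0.34, adjusted p = 0.047), and missed it after both rescalings (adjusted p = 0.105 and 0.143) and with any library left out. The transporter gene tap1 and the light chain gene b2m did not pass: tap1 was at 1.29 and 3.18 TPM in PM2.5 larvae and 1.05 and 1.67 TPM in controls (adjusted p = 0.547), and b2m at 4.12 and 3.12 TPM in PM2.5 larvae and 1.65 and 2.27 TPM in controls (adjusted p = 0.168). The neighbour of the immune subunits, tap2a, was at 0 and 0.113 TPM in PM2.5 larvae and 0.266 and 0.0779 TPM in controls.

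The list of interferon and IRF genes also held the NF-kB genes nfkb1, nfkb2, rela and relb, which did not pass. Of its 20 tested genes 5 rose (median 0.27), where 8.46% of all tested genes rose. The transcription factor gene irf1a (chromosome 13), whose mammalian relative drives immunoproteasome genes, had 12.9 and 14.0 TPM in PM2.5 larvae and 1.31 and 1.47 TPM in controls (2.597, SE 0.18, adjusted p = 0.00074). The interferon gamma receptor gene ifngr1 rose by 1.48 and the cytokine suppressor gene socs3b by 1.15. The other rises were those of irf2 and socs1a. Of the 20 tested genes 15 did not pass. Among these, stat1a was at 0.26 (adjusted p = 0.128), stat2 at 0.01, jak1 at 0.08 and ifngr2 at 0.28. The genes irf7 and irf9 were at 0.31 and 0.20, and irf3 and ifngr1l at -0.12 and -0.21. The second IRF1 gene, irf1b, was at 7.28 and 5.87 TPM in PM2.5 larvae and 3.33 and 3.41 TPM in controls (adjusted p = 0.052). The interferon gamma genes ifng1 and ifng1r were listed at 0 in both controls and in PM2.5 replicate 1.

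**Figure D4:**
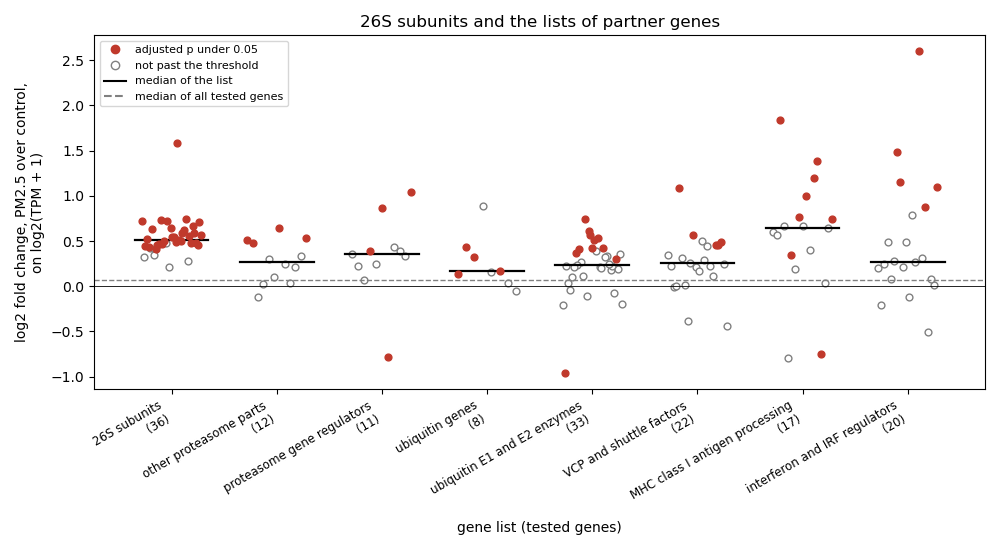
Log2 fold change of PM2.5 over control on log2(TPM + 1) (y axis) for the 36 standard subunit genes (named 26S on the axis) and for the tested genes of 7 partner lists (x axis, number of genes in brackets), filled in red for an adjusted p under 0.05. The median of the subunits, 0.51, is above the dashed median of all tested genes, 0.07.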

How the data were processed

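RNA of whole larvae was sequenced in 2 PM2.5 and 2 control libraries, grouped by title. The authors deposited 1 table of TPM. Per the submitters' processing notes the tools were cutadapt 1.18 and STAR 2.6.1c with build GRCz11. No source used here gives the counting program, annotation or strand setting, and the labels name more than 1 extraction kit and sequencer. Of 32925 rows, 405 repeated an ID with the same values and were dropped.

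TPM is a whole read number over a whole gene length times 1 constant per library. Solving for these gave whole reads, within 0.001 reads, in 100% of 25331 genes above 0 in at least 2 libraries, and seldom did for jittered values. A multiplier shared by the 4 values of 1 gene can be missed.

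The test was limma 3.58.1 (R 4.3.3) on log2(TPM + 1) for IDs averaging 1 TPM or more (group as the only term, intensity trend, two-sided). The fold change understates that of low genes. On simulated counts with few changed genes the fit did not hold its nominal error: 11.6% of its calls were false, above the threshold. Of simulated log2 changes of 0.5 the fit recovered 0.151%. These were pooled over genes of all tested levels, so the share cannot be read as a rate for the members. A further simulation from the fit's own model, added after that and fitted with no trend, stayed under the threshold. It had more changed genes, all changed by 1 on the log2 scale. As its data follow the assumptions of the fit, it cannot show how the main fit behaves on counts or on smaller changes. Alternatives were pseudocounts of 0.1 and 5 TPM, a minimum of 5 TPM or none, 2 rescalings, no trend, a replicate block and leaving out each library. Voom on recovered reads, chosen after seeing the data, called 2808 genes higher and 1148 lower. Exact intervals used scipy 1.17.1. Members and lists were chosen with earlier results of these data known, as was the rule for values shown: all immune, activator, inhibitor and psmg members, the catalytic subunits, the largest and smallest change per class, and the 3 smallest p per list. Other list genes were named after their values were seen. Of 185 list entries 178 matched an ID. The values of 1 list gene are not reported here.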

Additional observations from a re-analysis of the deposited data

How the results depend on the processing

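All 51 tested members kept the sign of their log2 fold change under every alternative in which they were fitted. The 34 rises became 22 with TMM-type rescaling and 4 with no intensity trend (665 of all genes rose and 105 fell there, against 1766 and 547), and 3 to 6 when 1 library was left out (286 to 371 of all genes rose and 70 to 124 fell), where the lone library of a group is assumed to vary like the others. The 2 rescalings moved the median of all tested genes by -0.09 and -0.11 and the genes that fell to 846 and 962, and the members' median was 0.36 after quantile normalization. By class, TMM-type rescaling left 9 alpha ring, 4 beta ring, 3 ATPase, 3 non-ATPase and 2 activator rises. Quantile normalization left 9 alpha ring, 5 beta ring, 3 ATPase, 3 non-ATPase and 2 activator rises. Over all tested genes 5.86% and 6.34% rose in these fits. The activators were psme1 and psme2 in both. With no trend there was 1 alpha ring rise and 0 in the beta ring, ATPase and non-ATPase classes. Leaving out a library gave 1 to 3 alpha ring, 1 to 2 beta ring, 0 to 1 ATPase, 0 to 1 non-ATPase and 0 to 1 activator rises. Voom, chosen after seeing the data, gave 11 non-ATPase rises and 1 lower member, psme4a, and the fit with no filter gave 1 immune rise, psmb9a. Of the partner lists, those of interferon and MHC class I genes kept calls in each fit without 1 library, and the other lists kept hardly any. In the MHC class I list the genes called in all of these fits were pdia3, canx, calr3a, calr3b and mhc1zba. All of these but mhc1zba also serve general protein folding. Ratios of rare immune genes turned on the pseudocount. The log2 ratio of psmb8a over psmb5 (PM2.5 minus control) was -0.10 with 1 TPM, 0.46 with 0.1 TPM and -0.30 to 0.10 with a library left out. That of psmb9a over psmb6 was 0.81 with 1 TPM, 3.12 with 0.1 TPM and -0.0789 with 5 TPM. The pseudocount is added to both genes of a ratio, so it moves the rarer gene more. The cause of any change in these ratios was not tested. Same-numbered libraries deviated together little (correlation 0.07), so the numbers were not taken as pairs, and the replicate block gave 35 rises. Depth limits psmb8a, psmb9a and psmb12, with 29, 38 and 17 reads in PM2.5 larvae and 10, 1 and 1 in controls.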
